A study of Homo sapiens with 18 samples.

Results

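A549 cells in which YAP had been knocked down were compared directly with A549 cells in which TAZ had been knocked down. A549 is a human lung adenocarcinoma line. The comparison took the 3 libraries titled siYAP and the 3 titled siTAZ, 6 of the 18 libraries of the series, and all genes of the count table. Cells had received 30 nM of an siRNA pool against YAP (gene YAP1) or against TAZ (gene WWTR1) for 48 h, and serum was withdrawn for the final 18 h. A549 cells given the control siRNA at the same dose and time (siControl, 3 libraries) are shown beside the values but carry no weight in the contrast. The same knockdowns in H1299, a second human lung cancer line, with 3 libraries per group, are used only where the lines are compared. RNA was sequenced as poly(A) libraries from whole cultures, so a transcript lost from all cells and a loss of the cells that hold it cannot be told apart. Nothing in the labels says that replicates were separate cultures, so the p-values rest on a spread between libraries that may be purely technical. Each group rests on 1 siRNA pool, so an effect of the pool on other transcripts cannot be told apart from the effect of losing its target.

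YAP and TAZ are paralogous coactivators that do not bind DNA themselves. They enter the nucleus when the Hippo kinases MST and LATS are inactive, and there they attach to TEAD transcription factors, which recognise the sequence GGAATG or its complement CATTCC. Their best known targets in epithelial and tumour cells encode secreted matricellular proteins of the CCN family, such as CTGF and CYR61, and the nuclear ankyrin repeat protein ANKRD1. Each paralog is also known for partners and targets that the other shares only in part, which a direct comparison of the knockdowns addresses.

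Values are CPM, read counts scaled to a common library total by TMM, given for replicates 1, 2 and 3 in that order. The difference between the knockdowns is the log2 ratio siYAP minus siTAZ ± its standard error, so a positive value means more transcript when YAP was depleted than when TAZ was depleted. A gene was called at an adjusted p below 0.05 (edgeR quasi-likelihood F test, Benjamini-Hochberg over the 16008 genes tested), in a fit that held the replicate number as a block. The 9 A549 libraries held 10692671 to 44983651 assigned reads, a ratio of 4.21, with siYAP 1 the shallowest and siYAP 2 the deepest. The first principal component of log CPM, with 48.0% of the variance, set replicate 3 of each group apart from replicates 1 and 2. Once the replicate number was fitted, siYAP 1 lay farthest from the other libraries on the second component, at 23.2 against -15.6 to 5.31. The epithelial keratins KRT8, KRT18 and KRT19 and CDH1 were present in every library, as were ALDH1A1 and AKR1B10, which A549 is known to express strongly. EPCAM was low, at 0.836 to 4.38 CPM. Summed markers of immune cells stood at 6.48 to 10.3 CPM, of endothelial cells at 0.566 to 1.43 CPM and of fibroblasts at 4.64 to 11.5 CPM over the 9 libraries. PTPRC, CD3E, PECAM1, VWF, KDR, COL1A2 and DCN, defining genes of those cells, are not among the genes listed in the table.

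Promoter stretches of 4 of the called genes show the TEAD letters that the data can be set beside. They come from RefSeq windows of 250 bases before to 50 bases after a start site (GRCh38.p14). All 4 genes were higher under siYAP than under siTAZ, and their windows hold 2 or 3 matches before the start, which are written in capitals. Each stretch is on the minus strand and is read in the direction of the gene. The first is of CTGF (chr6:131951454-131951549), with matches starting 169, 104 and 95 bases before the start, the next of ANKRD1 (chr10:90921202-90921315), at 220 and 128 bases. The third is of C1orf116 (chr1:207032784-207032840), at 76, 65 and 41 bases, and the last of NUAK2 (chr1:205321750-205321950), at 197 and 18 bases.
CTGF: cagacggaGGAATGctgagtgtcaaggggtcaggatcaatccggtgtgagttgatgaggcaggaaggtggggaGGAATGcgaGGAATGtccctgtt
ANKRD1: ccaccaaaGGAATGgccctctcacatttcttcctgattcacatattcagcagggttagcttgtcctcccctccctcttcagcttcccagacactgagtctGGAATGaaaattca
C1orf116: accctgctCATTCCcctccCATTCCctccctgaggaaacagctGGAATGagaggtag
NUAK2: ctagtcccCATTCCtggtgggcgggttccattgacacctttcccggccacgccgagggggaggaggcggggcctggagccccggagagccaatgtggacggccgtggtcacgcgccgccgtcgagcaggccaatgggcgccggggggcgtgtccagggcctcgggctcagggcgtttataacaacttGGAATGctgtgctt
The motif searched was GGAATG on both strands. It was present in 11.5% of the 16628 windows of tested genes, in 11.3% of the 467 windows of genes called higher under siYAP and in 12.2% of the 843 windows of genes called lower, so its presence was about as frequent in all 3 sets. Windows with 2 or more matches made up 0.92%, 2.36% and 1.07% of those sets. The AP-1 motif TGANTCA was present in 5.41%, 6% and 6.29%. The 12 protein-coding genes with the largest differences in each direction are described below and include the siRNA targets YAP1 and WWTR1. Of those higher under siYAP, 10 have a window and 3 of the 10 hold GGAATG, with no match for WWTR1. Of those lower, 9 have a window and 1 of the 9 holds it, which is YAP1 itself. Among 22 commonly used YAP and TAZ target genes, 16 have a window and 9 of the 16 hold the motif. In these counts a gene holds the motif if any of its windows does. The shares above are of windows, so the counts cannot be compared with them. A match is a stretch of letters and not a measured binding site.

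Each siRNA pool lowered its own target. YAP1 (chr11:102110461-102233423, GRCh38) stood at 17.0, 15.5 and 19.5 CPM under siYAP and at 58.4, 58.9 and 62.7 CPM under siTAZ, with 59.6, 56.9 and 58.3 CPM in the controls. All siYAP libraries lay below all other libraries, and the difference was -1.82 ± 0.06 (adjusted p = 1.05e-23). WWTR1 (chr3:149517235-149736714) stood at 158, 162 and 153 CPM under siYAP and at 70.7, 50.9 and 51.6 CPM under siTAZ, with 174, 180 and 176 CPM in the controls. Its difference was 1.47 ± 0.06 (adjusted p = 2.00e-20), and siTAZ 1 kept more transcript than siTAZ 2 and 3. Against control, YAP1 changed by -1.78 ± 0.06 under siYAP and by 0.04 ± 0.05 under siTAZ (adjusted p = 0.703), and WWTR1 by -1.63 ± 0.06 under siTAZ and by -0.16 ± 0.05 under siYAP (adjusted p = 0.0846). Transcripts annotated on the opposite strand overlap both genes, and no source used here gives the strand setting of the counting.

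**Figure D1:**
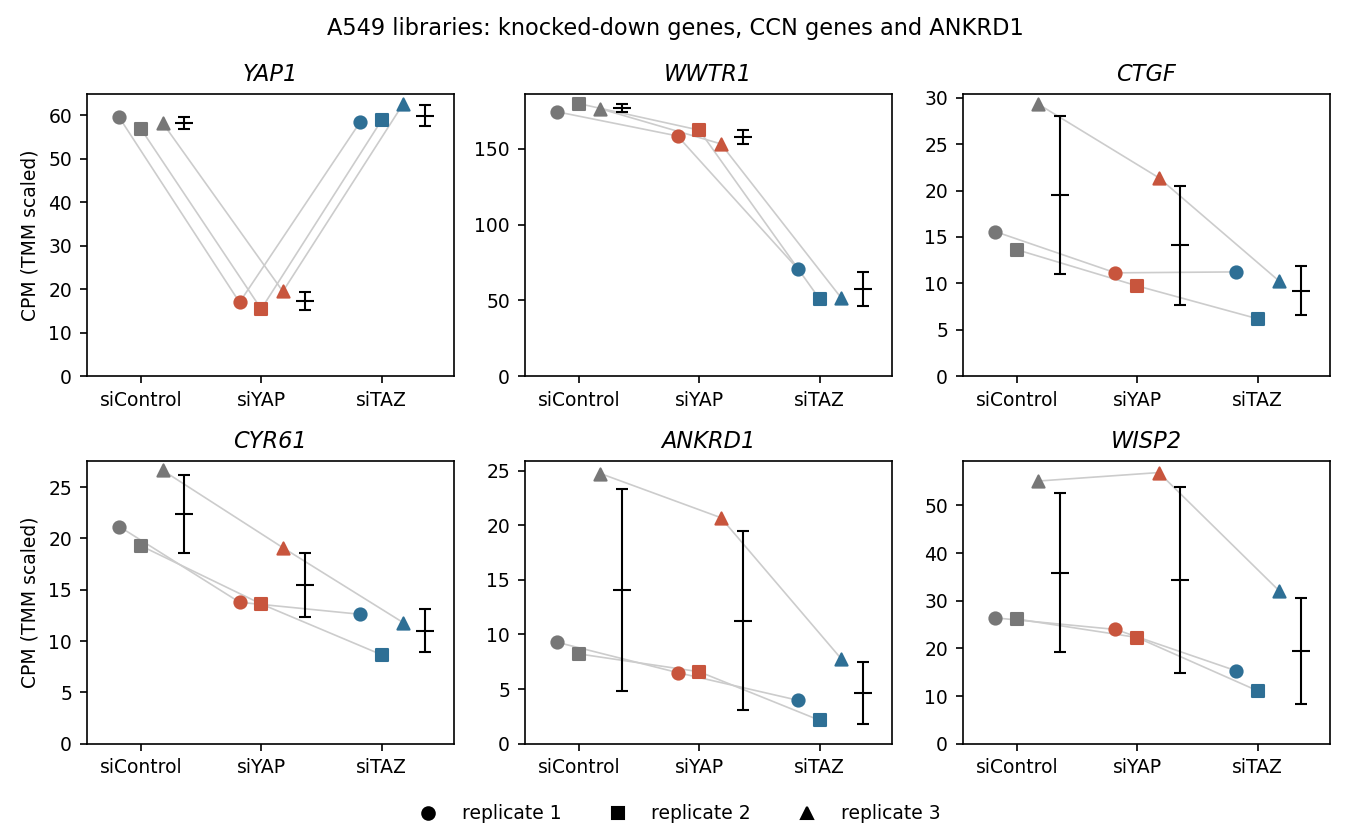
CPM in each A549 library (y axis, TMM scaled) by siRNA (x axis) for the 2 knocked-down genes, 3 CCN family genes and ANKRD1. Circles, squares and triangles are replicates 1, 2 and 3, grey lines join equal replicate numbers, and black bars are the mean ± SD of 3 libraries. CTGF, ANKRD1 and WISP2 are highest in replicate 3 of the controls and of siYAP, and ANKRD1 and WISP2 are lower under siTAZ than under siYAP in each same-numbered pair.

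Beyond the 2 targets, most differences between the knockdowns were small and more of them were lower than higher under siYAP. Of 16008 genes, 1127 were called (7.04%), 403 higher under siYAP (2.52%) and 724 lower (4.52%). The median size of a called difference was 0.25 on the log2 scale, with quartiles of 0.19 and 0.36, and the median over all genes tested was 0.00083. Only 23 called genes differed at least 2-fold, and 4 of these had a mean of at least 5 CPM over the 6 libraries, namely YAP1, WWTR1, ANKRD1 and TCN1. The CPM of the 2 groups did not overlap in 8.24% of all genes tested, with siYAP above siTAZ in 4.18% and below it in 4.06%. Of the 1127 genes, 1091 differed in the same direction in all 3 same-numbered pairs. They were called by a fit blocked on the same pairs, so nothing is read from that count. The calls rest on the block: without it 2 genes passed, YAP1 and WWTR1, with 558 genes at an unadjusted p below 0.05 against 3224 with it. DESeq2 with the same block called 135 higher and 390 lower, of which 520 were among the 1127, so that 25.7% of its calls were higher against 35.8% here. The authors' deposited table, also from DESeq2, lists 468 genes at an adjusted p below 0.05 for this comparison, 117 higher and 351 lower under siYAP. Of those 468, 465 were called here in the same direction. Without siYAP 2, 308 genes were called, without siTAZ 2 there were 436 and without siYAP 3 there were 658. Leaving out a whole replicate number gave 639, 289 and 703 calls for numbers 1, 2 and 3. Called genes given below with their values by library kept their call in all 17 alternatives that held the block, except where a loss is named. Of all 149 called genes chosen for description, 52 did so and 97 lost their call in at least 1.

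**Figure D2:**
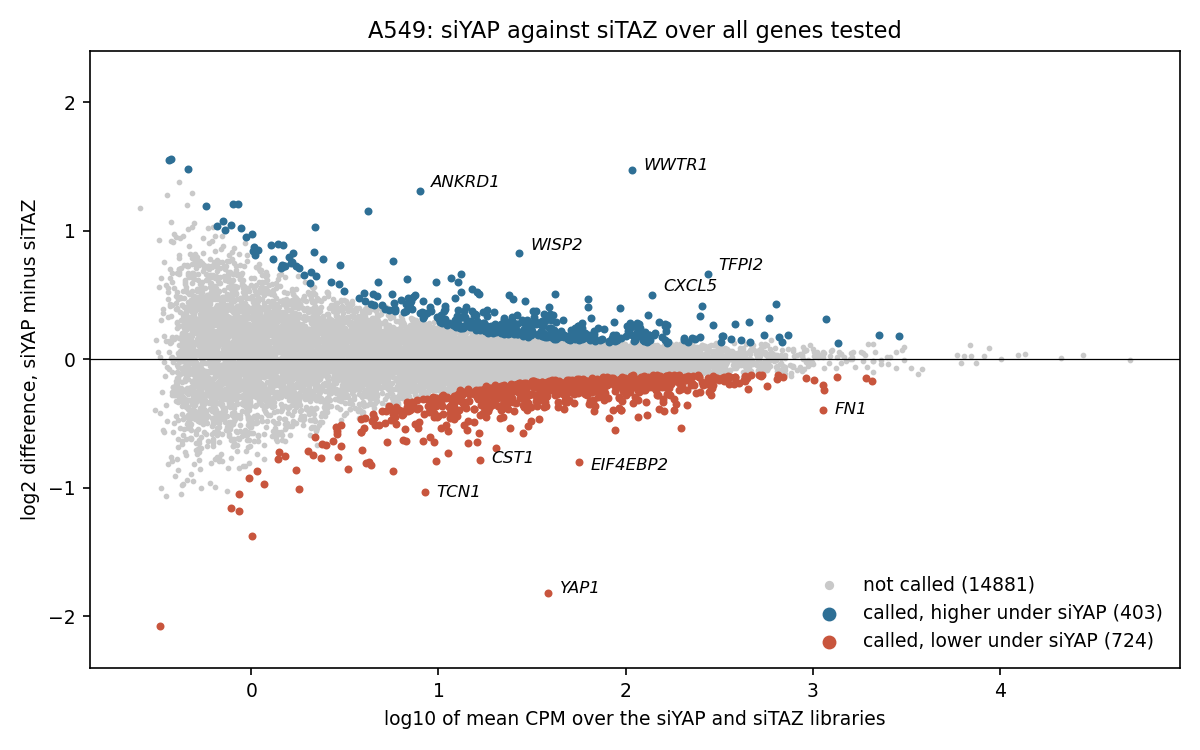
Log2 difference siYAP minus siTAZ (y axis) against the log10 of the mean CPM of the 6 libraries (x axis) for the 16008 genes tested in A549. Blue points are the 403 genes called higher under siYAP, red points the 724 called lower and grey points the rest. Apart from YAP1, WWTR1 and ANKRD1, the labelled genes lie within 1.1 log2 units of 0.

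The matricellular CCN genes and ANKRD1 kept more transcript when YAP was depleted than when TAZ was depleted. ANKRD1 (chr10:90912096-90921276) stood at 6.51, 6.59 and 20.7 CPM under siYAP and at 3.97, 2.15 and 7.78 CPM under siTAZ, with 9.29, 8.22 and 24.7 CPM in the controls. Replicate 3 was the highest in each group, so the groups overlapped, but siTAZ was the lower in each pair, and the difference was 1.31 ± 0.11 or 2.48-fold (adjusted p = 1.91e-10). CYR61 (chr1:85580761-85583962), which encodes a ligand of integrins, stood at 13.8, 13.6 and 19.1 CPM under siYAP and at 12.6, 8.67 and 11.8 CPM under siTAZ, with 21.2, 19.3 and 26.6 CPM in the controls. All siYAP libraries lay above all siTAZ libraries, by 0.53 ± 0.08 or 1.44-fold (adjusted p = 4.66e-05), and below all controls. WISP2 (chr20:44714844-44728509), a CCN family member that lacks the C-terminal domain of the others, stood at 24.0, 22.3 and 56.9 CPM under siYAP and at 15.3, 11.1 and 32.1 CPM under siTAZ, with 26.4, 26.2 and 55.1 CPM in the controls. It was higher under siYAP in each pair, by 0.82 ± 0.07 or 1.77-fold (adjusted p = 9.81e-11).

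CTGF (chr6:131948176-131951373) was the less stable case. It stood at 11.1, 9.73 and 21.4 CPM under siYAP and at 11.2, 6.19 and 10.2 CPM under siTAZ, with 15.6, 13.6 and 29.3 CPM in the controls. In replicate 1 the knockdowns were level, and the difference of 0.63 ± 0.11 (adjusted p = 0.000259) came from replicates 2 and 3. It did not pass with DESeq2 (0.55, adjusted p = 0.27) or without siTAZ 3 (0.33, adjusted p = 0.0534), nor without replicate 3. A transcript on the opposite strand overlaps CTGF. Against control, siYAP and siTAZ changed CTGF by -0.45 ± 0.10 and -1.08 ± 0.11, CYR61 by -0.51 ± 0.08 and -1.03 ± 0.08, ANKRD1 by -0.31 ± 0.09 and -1.62 ± 0.11, and WISP2 by -0.11 ± 0.06 (adjusted p = 0.373) and -0.93 ± 0.07. Those comparisons share the control libraries, and the other changes in this list passed.

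Not all commonly used YAP and TAZ targets went the same way. Of 22 such genes, all tested, 9 were higher under siYAP and 2 were lower, against 2.52% and 4.52% of all genes, and their median difference was 0.11. Besides ANKRD1, CTGF and CYR61 the higher genes were AMOTL2, CRIM1, NUAK2, TGFB2, DOCK5 and MYOF. AMOTL2, an angiomotin that binds YAP and TAZ, stood at 31.3, 33.3 and 44.0 CPM under siYAP and at 27.4, 25.6 and 30.8 CPM under siTAZ, against 49.6, 53.1 and 50.5 CPM in the controls, and the difference was 0.37 ± 0.07 (adjusted p = 0.000217). CRIM1, a membrane protein that binds bone morphogenetic proteins, stood at 313, 258 and 261 CPM against 270, 200 and 195 CPM, a difference of 0.33 ± 0.04 (adjusted p = 3.54e-07). NUAK2, a kinase of the AMPK family, stood at 25.7, 25.1 and 37.4 CPM against 22.9, 18.4 and 28.6 CPM (0.34 ± 0.06, adjusted p = 0.000303). TGFB2, a TGF-beta ligand, was higher in each pair (0.30 ± 0.06, adjusted p = 0.000852), although replicate 3 exceeded the other replicates in both groups. DOCK5, an exchange factor for RAC, and MYOF, a membrane repair protein, differed by 0.21 ± 0.04 and 0.17 ± 0.04. MYOF did not pass without siYAP 2 (adjusted p = 0.0907), siYAP 3 (0.0968) or siTAZ 2 (0.171), and DOCK5 did not pass without replicate 2 (0.055).

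The 2 members that were lower under siYAP were near control there and above it under siTAZ. IGFBP3, which binds insulin-like growth factors, stood at 165, 146 and 159 CPM under siYAP, at 216, 211 and 188 CPM under siTAZ and at 152, 154 and 163 CPM in the controls, a difference of -0.39 ± 0.05 (adjusted p = 1.99e-07). NT5E, the surface enzyme CD73 that makes adenosine, stood at 66.3, 55.5 and 57.4 CPM under siYAP, at 73.6, 75.4 and 71.3 CPM under siTAZ and at 57.5, 55.8 and 58.5 CPM in the controls (-0.32 ± 0.05, adjusted p = 1.89e-05). In both genes all siTAZ libraries lay above all siYAP libraries. The 11 members that did not pass had differences from -0.20 for FOXF2 to 0.47 for RBMS3, and AXL, a receptor kinase often used as a YAP target, stood at 0.13 ± 0.04 (adjusted p = 0.073).

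In the Hippo pathway itself, differences were small and divided between the directions. Of 29 tested members, AMOTL2, TAOK3 and AJUBA were called higher under siYAP (10.3%, against 2.52% of all genes), MAP4K4, VGLL4 and WTIP lower (10.3%, against 4.52%), and 23 did not pass, with a median of -0.03. TAOK3 and MAP4K4 are upstream kinases, AJUBA and WTIP are LIM proteins that bind LATS, and VGLL4 competes with YAP and TAZ for TEAD. Apart from AMOTL2, each of these lost its call without siYAP 2. The values were then 0.12 for AJUBA (adjusted p = 0.447), 0.14 for TAOK3 (0.243), -0.17 for MAP4K4 (0.0816), -0.19 for VGLL4 (0.2) and -0.33 for WTIP (0.129). TEAD1, one of the DNA-binding partners, stood at 119, 114 and 103 CPM under siYAP and at 117, 96.2 and 97.6 CPM under siTAZ (0.12 ± 0.04, adjusted p = 0.0777). TEAD2, TEAD3 and TEAD4 differed by -0.04, -0.04 and -0.15, and LATS1 and LATS2 by -0.23 and -0.15, none of which passed.

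Apart from YAP1 itself, the largest differences toward lower levels under siYAP were mostly transcripts that stood near control under siYAP and above it under siTAZ. TCN1 (chr11:59852800-59866575), which encodes a vitamin B12 carrier, stood at 4.62, 6.02 and 5.83 CPM under siYAP, at 9.62, 12.2 and 12.3 CPM under siTAZ and at 5.64, 5.94 and 6.01 CPM in the controls. The siTAZ libraries lay apart from all others, and the difference was -1.03 ± 0.10, or 2.05-fold higher under siTAZ (adjusted p = 1.26e-09). SLC4A8, a sodium bicarbonate transporter, stood at 3.77, 4.94 and 3.49 CPM under siYAP and at 5.99, 9.94 and 5.94 CPM under siTAZ (-0.87 ± 0.12, adjusted p = 3.02e-06). MMP2, a gelatinase that degrades basement membrane collagen, stood at 5.57, 4.72 and 11.1 CPM under siYAP and at 9.76, 8.91 and 17.8 CPM under siTAZ (-0.79 ± 0.09, adjusted p = 1.60e-07), with 5.44, 4.74 and 9.97 CPM in the controls. Replicate 3 was high in all groups, and siTAZ was the higher in each pair. CST1, a secreted cysteine protease inhibitor, stood at 10.1, 14.1 and 12.7 CPM under siYAP and at 17.9, 23.7 and 21.6 CPM under siTAZ (-0.78 ± 0.07, adjusted p = 6.80e-10). The groups did not overlap, and the controls, at 9.35, 15.1 and 11.95 CPM, lay below all siTAZ libraries.

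CEMIP, which degrades hyaluronan, stood at 15.3, 22.3 and 9.03 CPM under siYAP and at 24.2, 35.0 and 15.8 CPM under siTAZ (-0.69 ± 0.06, adjusted p = 1.20e-09). SYT11, a synaptotagmin of vesicle traffic, and STC1, the secreted hormone stanniocalcin, differed by -0.65 ± 0.08 and -0.64 ± 0.07. STC1 stood at 12.4, 12.4 and 13.3 CPM under siYAP and at 18.3, 20.1 and 20.2 CPM under siTAZ, without overlap, and the controls were at 12.7, 14.6 and 13.9 CPM. FOS, the immediate early AP-1 subunit, stood at 7.46, 7.74 and 7.09 CPM under siYAP, at 12.3, 12.5 and 9.91 CPM under siTAZ and at 7.16, 7.65 and 7.61 CPM in the controls (-0.64 ± 0.09, adjusted p = 8.26e-06). SDK1, an adhesion molecule of the immunoglobulin family, differed by -0.65 ± 0.13 and did not pass without siYAP 2 (-0.49, adjusted p = 0.11). Against control, siTAZ changed TCN1, SLC4A8, MMP2, CST1, CEMIP, SYT11, STC1 and FOS by 0.98, 1.12, 0.86, 0.77, 0.52, 0.82, 0.49 and 0.65, each called, where 13.3% of all genes were. These genes were chosen by a difference that uses the same siTAZ libraries, so nothing is read from that count. Under siYAP the same 8 genes stood at -0.06, 0.24, 0.07, -0.02, -0.17, 0.17, -0.15 and 0.01 from control. None was called, where 5.68% of all genes were, and nothing is read from that count either. SDK1 is not among the 8.

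EIF4EBP2 and XKR8 differed from the controls in opposite directions under the 2 knockdowns. EIF4EBP2 (chr10:70404379-70428618), a repressor of cap-dependent translation, stood at 35.2, 37.4 and 52.0 CPM under siYAP, at 60.3, 73.7 and 79.8 CPM under siTAZ and at 55.3, 58.0 and 74.6 CPM in the controls. All siYAP libraries lay below all siTAZ libraries, by -0.80 ± 0.05 (adjusted p = 2.23e-13). Against control it changed by -0.60 ± 0.05 under siYAP and by 0.20 ± 0.05 under siTAZ, both called. XKR8, a scramblase that exposes phosphatidylserine, stood at 8.21, 7.93 and 9.15 CPM under siYAP, at 13.9, 13.4 and 14.5 CPM under siTAZ and at 9.95, 10.7 and 13.5 CPM in the controls (-0.73 ± 0.09, adjusted p = 1.47e-07). Its changes against control, -0.43 ± 0.09 and 0.30 ± 0.08, were both called.

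The largest differences toward higher levels under siYAP, apart from WWTR1, ANKRD1, WISP2 and CYR61, were in genes that fell below control under siTAZ and stayed nearer to it under siYAP. TFPI2 (chr7:93885396-93890991), a secreted inhibitor of matrix-degrading serine proteases, stood at 299, 287 and 421 CPM under siYAP, at 221, 162 and 255.4 CPM under siTAZ and at 428, 391 and 502 CPM in the controls. The 2 knockdowns did not overlap, and the difference was 0.67 ± 0.05, or 1.59-fold (adjusted p = 6.30e-12). C1orf116, an androgen-responsive transcript of epithelial cells, stood at 13.9, 17.0 and 17.5 CPM under siYAP and at 11.04, 10.9 and 8.99 CPM under siTAZ (0.66 ± 0.08, adjusted p = 6.56e-07), with 16.8, 19.4 and 17.9 CPM in the controls. ALPK2, an atypical kinase, stood at 15.3, 12.3 and 18.4 CPM under siYAP and at 11.7, 7.92 and 10.8 CPM under siTAZ (0.60 ± 0.08, adjusted p = 5.81e-06). MICB, a stress-induced ligand of the receptor NKG2D on natural killer cells, stood at 20.5, 18.3 and 17.8 CPM under siYAP and at 15.7, 11.8 and 11.7 CPM under siTAZ (0.53 ± 0.08, adjusted p = 2.22e-05). In C1orf116, ALPK2 and MICB no siTAZ library reached the lowest siYAP library.

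GFRA1, a receptor for the neurotrophic factor GDNF, and MAGEE1, a member of the melanoma antigen family, differed by 0.60 ± 0.10 and 0.55 ± 0.08. ANXA8L1, an annexin, and RFTN1, a lipid raft protein, differed by 0.62 ± 0.12 and 0.51 ± 0.13. ANXA8L1 has near-identical annexin copies, so its reads could be split among them, and it did not pass without replicate 2 (0.44, adjusted p = 0.0828). RFTN1 did not pass with DESeq2 (adjusted p = 0.0764), without siYAP 2 (0.278) or without siTAZ 2 (0.273). Against control, siTAZ changed TFPI2, ANXA8L1, C1orf116, RFTN1, ALPK2, MAGEE1, MICB and GFRA1 by -1.07, -0.92, -0.82, -0.65, -0.59, -0.58, -0.57 and -0.46, all called. Under siYAP they stood at -0.40, -0.29, -0.15, -0.14, 0.01, -0.03, -0.05 and 0.14 from control, and of these TFPI2 alone was called. These genes too were chosen by a difference that uses the same libraries.

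**Figure D3:**
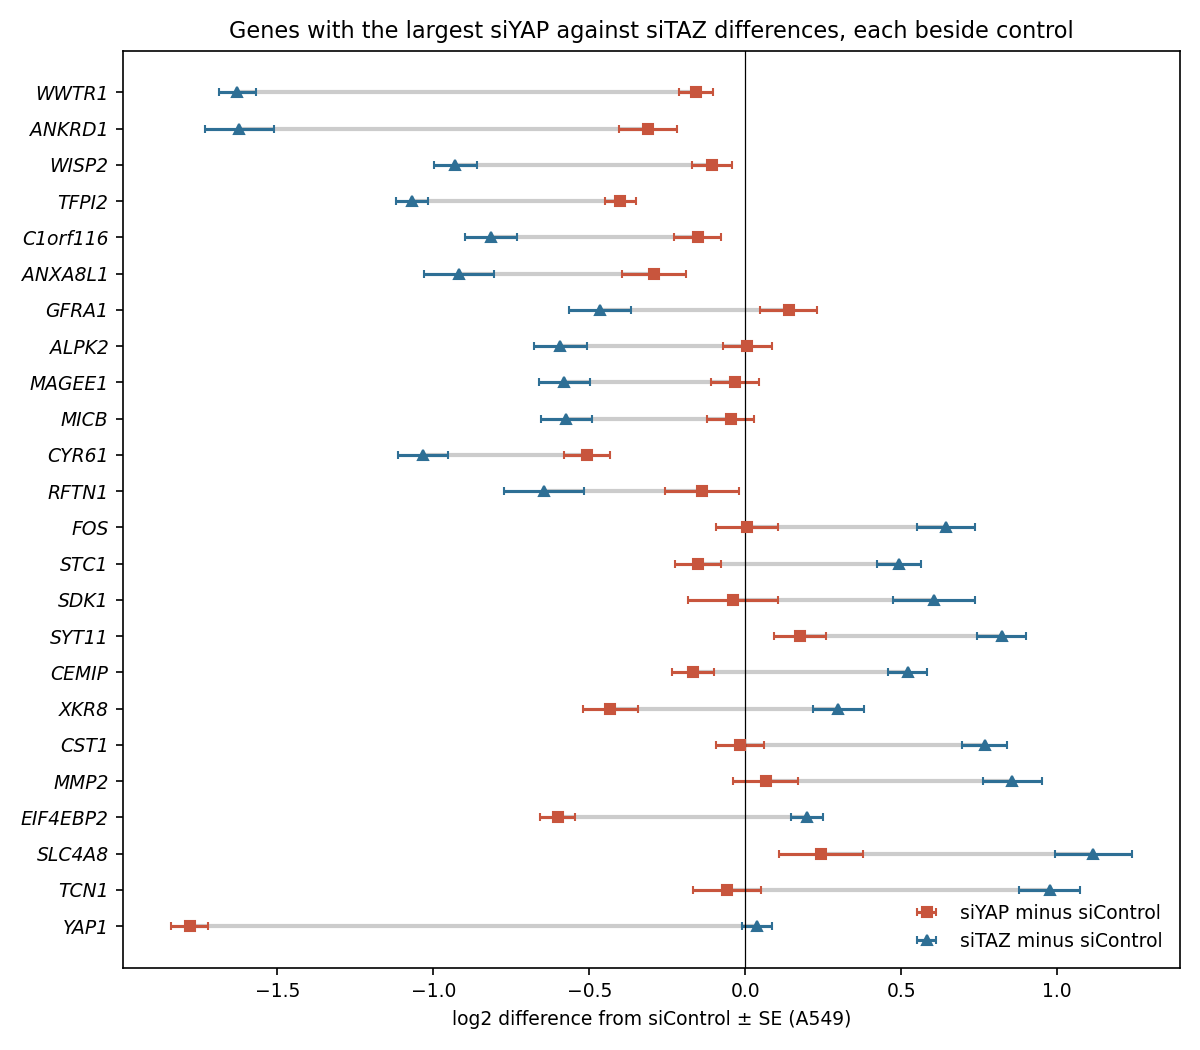
Log2 difference from siControl ± SE (x axis) for the 24 genes with the largest siYAP against siTAZ differences (y axis), siYAP as red squares and siTAZ as blue triangles, in A549. In 21 of the 24 genes the siTAZ point lies farther from 0 than the siYAP point, and the exceptions are YAP1, EIF4EBP2 and XKR8. Both points of a gene share the same 3 control libraries. The 24 include the siRNA targets, YAP1 and WWTR1. They were chosen by a difference that uses the same libraries, so nothing is read from the count of 21. Of all genes tested, 13.3% were called against control under siTAZ and 5.68% under siYAP.

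Gene lists were described by the members called and by the median difference, beside 2.52% called higher, 4.52% called lower and a median of 0.00083 over all genes. The lists that lay lowest under siYAP were the immediate early genes (median -0.16), interferon response and antigen presentation (-0.14), matrix remodelling enzymes (-0.14) and extracellular matrix proteins (-0.10). The highest were the YAP and TAZ targets (0.11) and the epithelial and junction genes (0.10).

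**Figure D4:**
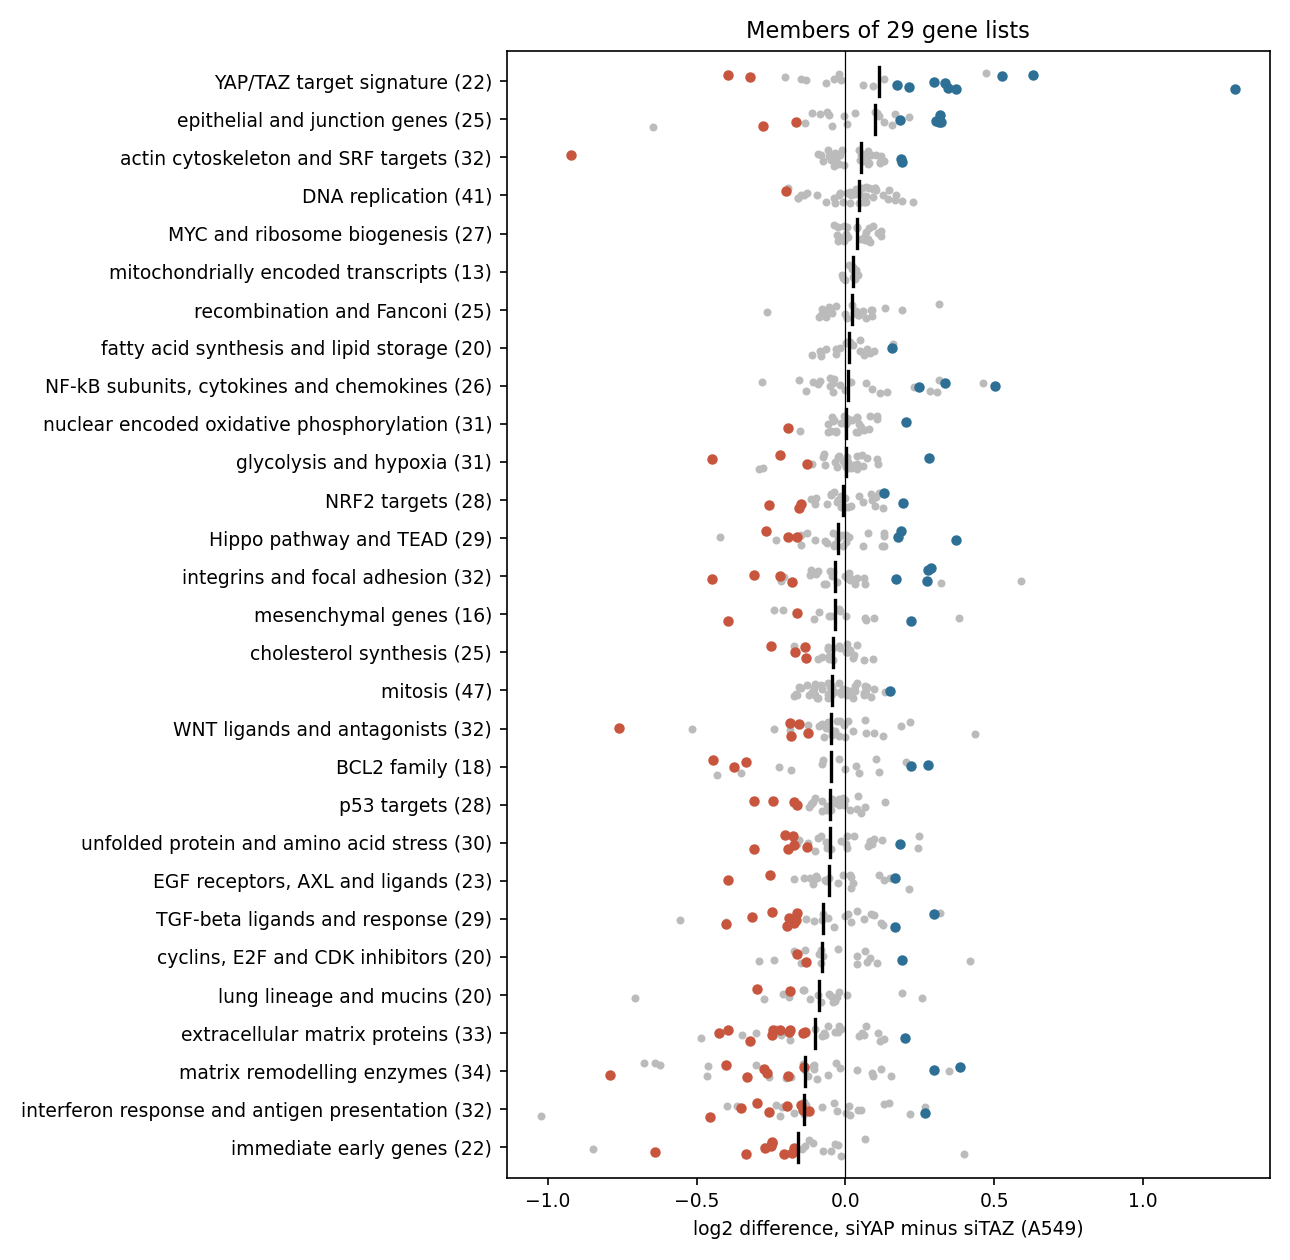
Log2 difference siYAP minus siTAZ (x axis) of each tested member of 29 gene lists (y axis, number tested in parentheses), ordered by the list median (black tick). Blue and red points are members called higher and lower under siYAP, grey points did not pass, and vertical scatter within a list has no meaning. The medians run from -0.16 for immediate early genes to 0.11 for the YAP and TAZ targets.

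Of the matrix genes that were called, most were lower under siYAP than under siTAZ. Among 33 tested matrix proteins, 10 were lower, 1 was higher (FBN2, a fibrillin) and 22 did not pass. FN1, fibronectin, stood at 1141, 790 and 1031 CPM under siYAP and at 1444, 1062 and 1372 CPM under siTAZ, with 985, 668 and 984 CPM in the controls. The groups overlapped but each pair differed the same way, by -0.39 ± 0.04 (adjusted p = 1.58e-08), and both knockdowns lay above control, by 0.17 ± 0.04 and 0.57 ± 0.04. LAMB3, the beta chain of laminin 332, stood at 51.6, 57.1 and 63.5 CPM under siYAP and at 66.8, 71.8 and 76.3 CPM under siTAZ, without overlap (-0.32 ± 0.04, adjusted p = 4.01e-06). VCAN, the proteoglycan versican, differed by -0.22 ± 0.04 (adjusted p = 0.000309). The other matrix genes called lower were LAMA3, LAMB2, THBS1, FBN1, LAMB1, LAMC1 and NID1, which encode laminin chains, thrombospondin, a fibrillin and nidogen. Summed fibroblast markers stood at 6.51, 7.24 and 9.43 CPM under siYAP and at 6.72, 8.42 and 11.5 CPM under siTAZ. Nearly all of that sum is COL1A1, at 4.51 to 11.2 CPM over the A549 libraries. COL3A1 and PDGFRB reached no more than 0.330 and 0.240 CPM. The part of these markers in the matrix differences was not tested. Without siYAP 2, 5 matrix genes were called lower and 0 higher (edgeR), and without siTAZ 2 there were 4 and 0.

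Of 34 tested remodelling enzymes, 7 were lower under siYAP, among them MMP2, and 2 were higher, MMP24 and ADAM12. PLOD2, the lysyl hydroxylase that prepares collagen for crosslinking, stood at 139, 121 and 157 CPM under siYAP, at 186, 165 and 197 CPM under siTAZ and at 212, 186 and 249 CPM in the controls. It fell under both knockdowns and further under siYAP, where all libraries lay below all siTAZ libraries (-0.40 ± 0.04, adjusted p = 1.23e-08). Against control the changes were -0.63 ± 0.04 and -0.23 ± 0.04. The urokinase PLAU and its receptor PLAUR were also lower under siYAP, and neither kept its call without siYAP 2, where 2 remodelling enzymes were called lower and 1 higher.

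Adhesion genes were divided. Of 32 tested integrin and focal adhesion genes, 4 were higher under siYAP (CAV1, CAV2, TNS3 and FERMT2) and 4 lower (ITGA2, ITGA6, ITGA5 and ITGA1). All 4 that were lower encode integrin alpha chains. ITGA2, the collagen-binding alpha 2 chain, stood at 106, 96.1 and 95.4 CPM under siYAP and at 138, 137 and 127 CPM under siTAZ, with 109, 107 and 107 CPM in the controls (-0.45 ± 0.04, adjusted p = 1.16e-09). CAV1, the scaffold of caveolae, stood at 166, 156 and 176 CPM under siYAP and at 140, 121 and 149 CPM under siTAZ (0.29 ± 0.04, adjusted p = 9.16e-06), with 174, 162 and 206 CPM in the controls. TNS3, a tensin that links integrins to actin, stood at 442, 410 and 416 CPM against 362, 327 and 357 CPM (0.28 ± 0.04, adjusted p = 2.28e-05). In ITGA2, CAV1 and TNS3 the 2 knockdowns did not overlap. CAV2, the partner of CAV1, was higher in each pair by 0.27 ± 0.04 (adjusted p = 3.84e-05), with overlap. Reads of CAV1, CAV2 and ITGA2 could come in part from transcripts annotated on the opposite strand. Without siYAP 2 or without siTAZ 2, 3 of the list were called higher and 2 lower.

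Immediate early genes, which serum and stress induce within minutes, were called lower under siYAP in 9 of 22 tested members, and 20 of the 22 had a negative difference. None was called higher by edgeR, with 1 at an unadjusted p below 0.05 and 0 by DESeq2. Besides FOS, the called members were MCL1, KLF6, IER3, FOSL2, JUND, NR4A1, IER5 and FOSL1. MCL1, which is also a BCL2 family survival protein, stood at 146, 136 and 137 CPM under siYAP, at 179, 180 and 169 CPM under siTAZ and at 169, 165 and 162 CPM in the controls. The siYAP libraries lay below all others, and the difference was -0.33 ± 0.04 (adjusted p = 2.16e-07). FOSL2, an AP-1 subunit, stood at 172, 146 and 238 CPM under siYAP and at 190, 171 and 281 CPM under siTAZ (-0.21 ± 0.04, adjusted p = 0.000679). Without siYAP 2, IER3 and JUND did not pass (adjusted p = 0.0974 and 0.101), and without replicate 3 KLF6 did not (0.0744). NR4A1, IER5 and FOSL1 lost their call both without siYAP 2 and with DESeq2. The count called lower was 4 without siYAP 2 and 6 with DESeq2. DUSP6, a phosphatase that ERK induces and that dampens it, stood at 19.2, 17.9 and 19.2 CPM under siYAP and at 23.4, 24.4 and 25.2 CPM under siTAZ (-0.39 ± 0.06, adjusted p = 3.71e-05), with 20.7, 20.8 and 20.7 CPM in the controls. Of 18 tested BCL2 family genes, 3 were lower under siYAP (16.7%, against 4.52% of all genes) and 2 higher (11.1%, against 2.52%). The other 13 did not pass, and the median was -0.05. The cell death inducers BMF and PMAIP1 were lower under siYAP along with MCL1, by 0.45 and 0.38 on the log2 scale. BAD and BCL2L12 were called higher, but neither with DESeq2 nor without siYAP 2. BMF and PMAIP1 did not pass without siYAP 2 (adjusted p = 0.0583 and 0.122) or siTAZ 2 (0.0884 and 0.0623).

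The keratins KRT18, KRT7 and KRT8 were called higher under siYAP, and KRT19 was not (0.11 ± 0.04, adjusted p = 0.0964). Of 25 tested epithelial and junction genes, 5 were higher (KRT18, KRT7, CLDN1, KRT8 and CLDN4) and 2 lower (CLDN2 and CGN). KRT18, the keratin partner of KRT8, stood at 1322, 1497 and 1099 CPM under siYAP, at 1231, 1179 and 781 CPM under siTAZ and at 1654, 1753 and 1200 CPM in the controls. It was higher under siYAP in each pair, by 0.31 ± 0.05 (adjusted p = 1.34e-05), and below control in both, by 0.22 and 0.54 on the log2 scale. KRT7 stood at 560, 677 and 720 CPM against 523, 554 and 489 CPM (0.32 ± 0.05, adjusted p = 2.47e-05), without overlap, and did not pass with DESeq2 (adjusted p = 0.0737). CLDN1, a tight junction protein, stood at 46.9, 40.1 and 45.5 CPM under siYAP and at 37.7, 33.1 and 35.8 CPM under siTAZ, without overlap (0.30 ± 0.05, adjusted p = 0.00016), with 41.5, 41.2 and 47.1 CPM in the controls. KRT8 differed by 0.18 ± 0.04 and did not pass without siYAP 2, siYAP 3, siTAZ 2 or siTAZ 3, nor without replicate 2 or replicate 3. KRT8 and KRT18 have many processed pseudogenes, whose share of the reads is not known here. The sum of the 5 epithelial markers, KRT8 and KRT18 among them, was 4781, 5102 and 4244 CPM under siYAP, 4577, 4279 and 3402 CPM under siTAZ and 5677, 5810 and 4522 CPM in the controls. The count called higher was 3 without siYAP 2, siYAP 3 or siTAZ 2.

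Called antigen presentation genes were mostly lower under siYAP, and called chemokine genes were higher. Of 32 tested interferon and antigen presentation genes, 8 were lower under siYAP and 1 higher. Among the lower genes were HLA-B, HLA-C and HLA-E, which present peptides, B2M, their shared light chain, PSMB8 and PSMB9, subunits of the immunoproteasome, and IFI6. Without siYAP 2 the lower genes numbered 2, and with DESeq2 4. HLA-C stood at 85.8, 87.4 and 151 CPM under siYAP and at 112, 106 and 167 CPM under siTAZ (-0.26 ± 0.04, adjusted p = 0.000104), with 94.8, 90.0 and 140 CPM in the controls. Replicate 3 was the highest in each group. HLA class I genes are near-identical over long stretches, and no source used here says how reads shared between them were assigned. Of 26 tested NF-kB, cytokine and chemokine genes, CXCL5, IL18 and CXCL1 were higher under siYAP. None was called lower by edgeR, with 1 at an unadjusted p below 0.05 and 0 by DESeq2, and without siYAP 2 the higher genes numbered 1. CXCL5, a chemokine for neutrophils, stood at 195, 146 and 142 CPM under siYAP, at 152, 100 and 91.6 CPM under siTAZ and at 214, 190 and 175 CPM in the controls (0.50 ± 0.05, adjusted p = 1.89e-08).

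Among 29 tested genes of TGF-beta ligands and response, 8 were lower under siYAP and 2 higher (TGFB2 and SMAD3). ID1, an inhibitor of helix-loop-helix factors that BMP signals induce, stood at 35.7, 65.6 and 31.6 CPM under siYAP and at 45.04, 82.0 and 38.8 CPM under siTAZ, lower under siYAP in each pair (-0.31 ± 0.05, adjusted p = 1.98e-05). TGFBR3, a coreceptor of TGF-beta, differed by -0.40 ± 0.07 (adjusted p = 7.56e-05). SOX4, a transcription factor that TGF-beta induces, stood at 48.7, 49.6 and 94.9 CPM under siYAP and at 63.1, 60.8 and 113 CPM under siTAZ (-0.30 ± 0.04, adjusted p = 1.42e-05), with 50.9, 48.6 and 94.8 CPM in the controls. Without siYAP 2, 2 genes of the TGF-beta list were called lower and 1 higher. Of 32 tested WNT ligands, receptors and antagonists, NKD1, SFRP1, LRP6, FZD7 and CTNNB1 were called lower under siYAP and none higher by edgeR, with 1 higher at an unadjusted p below 0.05 and 0 by DESeq2. Without siYAP 2, no WNT gene was called by edgeR.

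Metabolic genes were called in both directions, and few growth genes were called. Of 31 tested glycolysis and hypoxia genes, 3 were lower under siYAP (9.68%, against 4.52% of all genes) and 1 higher (3.23%, against 2.52%). SLC2A3, the glucose transporter GLUT3, stood at 21.2, 19.4 and 15.8 CPM under siYAP and at 27.8, 27.2 and 21.7 CPM under siTAZ (-0.45 ± 0.06, adjusted p = 3.56e-06). The glycolytic enzyme PGAM1 went the other way, at 60.0, 69.9 and 61.5 CPM against 50.04, 55.9 and 52.1 CPM (0.28 ± 0.05, adjusted p = 4.82e-05). SREBF2, which turns on cholesterol synthesis, stood at 272, 224 and 267 CPM under siYAP and at 316, 284 and 304 CPM under siTAZ (-0.25 ± 0.04, adjusted p = 4.87e-05). Of 25 cholesterol genes, 4 were lower (16%, against 4.52% of all genes), 1 without siYAP 2. None was higher by edgeR, at an unadjusted p below 0.05 or by DESeq2. In SLC2A3, PGAM1 and SREBF2 the 2 knockdowns did not overlap. Proliferation genes hardly differed: 1 of 41 DNA replication genes was called (PCNA, lower under siYAP), 1 of 47 mitosis genes (ANLN, higher) and 0 of 25 genes of recombination and Fanconi repair by edgeR, with 2 at an unadjusted p below 0.05 and 0 by DESeq2. Those counts are below the 7.04% called among all genes. ANLN lost its call in 12 of the 17 alternatives that held the block, DESeq2 among them. PCNA did not pass without siYAP 2 or siTAZ 2, nor without replicate 2. The medians of the 3 lists were 0.05, -0.04 and 0.02, while against control the same lists had medians of -0.26, -0.26 and -0.21 under siYAP and of -0.28, -0.21 and -0.22 under siTAZ. None of 27 MYC and ribosome biogenesis genes was called by edgeR, with 4 at an unadjusted p below 0.05 and 0 by DESeq2. The 13 mitochondrially encoded transcripts gave 0 calls by edgeR, 0 at an unadjusted p below 0.05 and 0 by DESeq2.

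Stress and cell cycle regulators gave small differences, most of them lower under siYAP. Of 30 tested genes of the unfolded protein and amino acid stress responses 6 were lower and 1 higher, and of 28 p53 targets 4 were lower. HSPA5, the endoplasmic reticulum chaperone BiP, stood at 621, 552 and 418 CPM under siYAP and at 741, 622 and 475 CPM under siTAZ, with 647, 627 and 429 CPM in the controls (-0.20 ± 0.04, adjusted p = 0.000868). It was lower under siYAP in each pair and did not pass without replicate 1. CDKN1A, the cell cycle inhibitor p21, stood at 267, 303 and 658 CPM under siYAP and at 299.9, 349 and 715 CPM under siTAZ, with replicate 3 the highest in each group (-0.16 ± 0.04, adjusted p = 0.00551), and did not pass without siYAP 2 or siTAZ 2, nor without replicate 1 or replicate 2. The receptor EGFR went the other way, at 236, 211 and 203 CPM under siYAP and 218, 178 and 185 CPM under siTAZ (0.17 ± 0.04, adjusted p = 0.00864), and did not pass without siYAP 2, siYAP 3 or siTAZ 2, nor without replicate 2. Without siYAP 2, 1 gene of the stress list and 1 p53 target were called, each lower.

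In H1299 the same contrast called 3399 of 15775 genes (21.5%), and the contrast itself differed between the lines in 1535 of 15816 genes (9.71%, test of the interaction in a joint fit of the 18 libraries). Line, growth medium and deposited table go together, and the knockdowns were not of equal depth: the YAP1 difference was -1.82 ± 0.06 in A549 and -2.79 ± 0.11 in H1299. Of 46 genes described here whose contrast differed between the lines and that were tested in each, 36 had the smaller difference in A549. Over all 1495 such genes 95.5% did, and the described genes were in part chosen for a difference between lines, so nothing is read from their count. TGFBI, a secreted matrix protein, had -0.16 ± 0.04 in A549 and -2.84 ± 0.24 in H1299 (interaction 2.62 ± 0.23, adjusted p = 3.97e-07). KITLG, the ligand of the receptor KIT, stood at 0.21 ± 0.06 in A549 and -2.08 ± 0.14 in H1299. SOX4 stood at -0.30 ± 0.04 and -2.31 ± 0.18. ADAM12, a membrane metalloprotease, was higher under siYAP in both lines, by 0.39 ± 0.12 in A549 and 3.17 ± 0.38 in H1299. Its A549 call was lost in 9 of the 17 alternatives, among them DESeq2 and the fits without siYAP 2 or without siTAZ 2, and its H1299 means were 1.31 CPM under siYAP and 0.139 CPM under siTAZ. VGF, a secreted peptide precursor, stood at 0.03 ± 0.21 and 1.98 ± 0.11, with 1.42, 2.06 and 1.20 CPM under siYAP and 2.16, 1.82 and 0.836 CPM under siTAZ in A549.

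The direction was opposite, with a call in both lines, for 12 of the 46 genes. Without siYAP 2, KITLG, EGFR, SMAD3, CEND1, FOSL1, NR4A1 and SFRP1 lost their A549 call, which leaves 5. TFPI2, NUAK2, TNS3, KITLG, EGFR and SMAD3 were higher under siYAP in A549 and lower in H1299. STC1, SYT11, CEND1, FOSL1, NR4A1 and SFRP1 were lower under siYAP in A549 and higher in H1299. TFPI2 stood at 0.67 ± 0.05 in A549 and -0.55 ± 0.13 in H1299, NUAK2 at 0.34 ± 0.06 and -0.81 ± 0.18, TNS3 at 0.28 ± 0.04 and -0.97 ± 0.20 and STC1 at -0.64 ± 0.07 and 0.65 ± 0.08. For other genes the interaction did not pass. These were CTGF (0.59 ± 0.12 in H1299, interaction 0.01, adjusted p = 0.982), CYR61 (0.31 ± 0.18, interaction 0.20, adjusted p = 0.698), NT5E (-0.32 ± 0.08, interaction 0.00, adjusted p = 0.988) and HLA-C (-0.27 ± 0.07, interaction 0.00, adjusted p = 1.00), and a p that misses the threshold does not show that the lines were equal. ITGA2 differed in A549 and stood at 0.00 ± 0.08 in H1299 (interaction -0.44 ± 0.09, adjusted p = 0.00291).

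**Figure D5:**
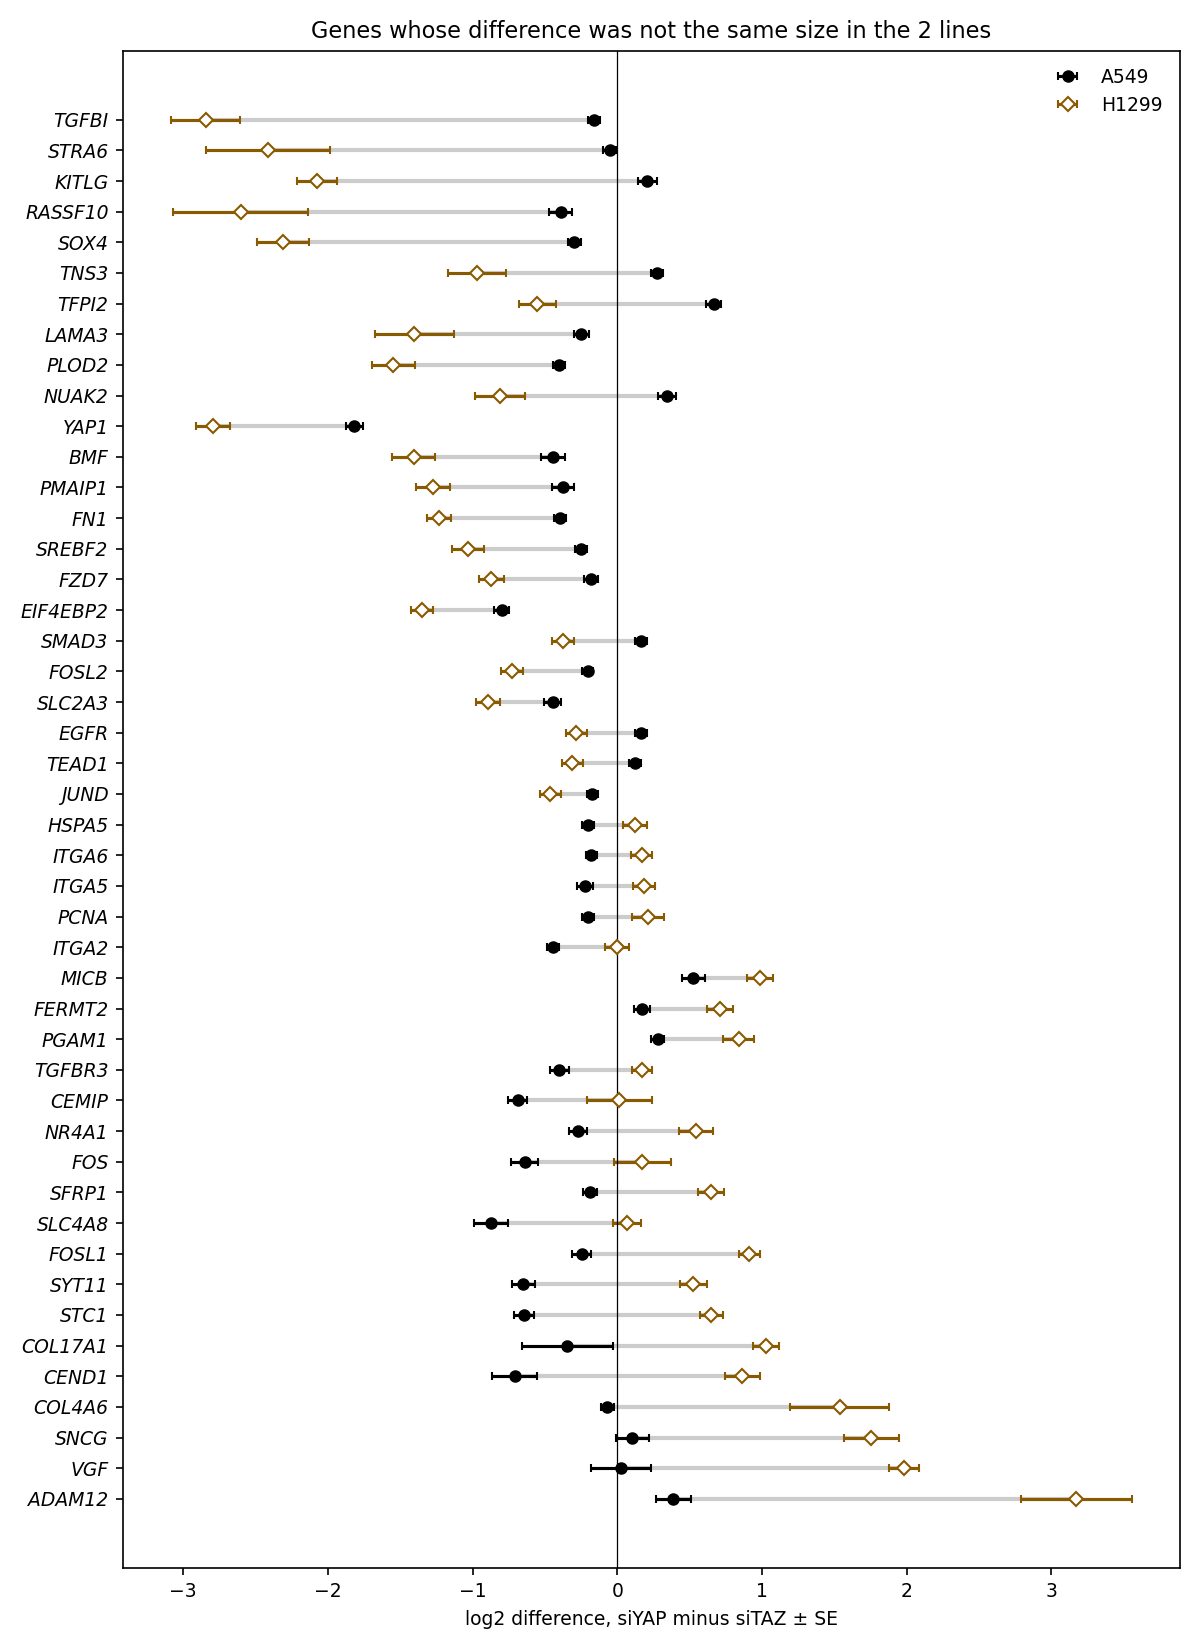
Log2 difference siYAP minus siTAZ ± SE (x axis) in A549 (black circles) and H1299 (open diamonds) for the 46 described genes whose difference was not the same in the lines by the interaction test and that were tested in each line. TGFBI, STRA6, KITLG, RASSF10 and SOX4 lie below -2 in H1299 and between -0.4 and 0.3 in A549. Of these, STRA6 and RASSF10 had H1299 group means of at most 1.19 CPM.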

How the data were processed

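Poly(A) RNA of 18 libraries was sequenced, 9 of them from A549. Per the submitters' processing notes the authors used cutadapt, STAR 2.4.2a, DESeq2 and genome build GRCh38. No source used here gives the read counter, annotation or strand setting. The authors deposited raw counts per gene, which every test here used. Their deposited normalized counts (signal) and batch-adjusted log2 values were not used, and their deposited log2 fold changes and p-values served only to count their calls.

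Libraries were grouped by their titles, and genes of the count table were matched by symbol to GENCODE 29 (19907 of 20335). Counts were scaled by TMM and filtered with filterByExpr by group. They were fitted with edgeR 4.0.16 (R 4.3.3, quasi-likelihood) over the 9 A549 libraries, with the replicate number as a block. The contrast weighed only the siYAP and siTAZ libraries, and the control libraries added to the estimate of spread. Difference between lines was the interaction in a joint fit of 18 libraries. Genes were called at a Benjamini-Hochberg adjusted p below 0.05. Same-numbered libraries deviated together (r = 0.384 to 0.729 over 9 pairs, different numbers -0.550 to 0.279), so the number, which the titles give and the column prefixes share across groups, was taken to pair the samples. No 2 replicates agreed within sampling noise (chi-square per degree of freedom 6.35 to 27.5).

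Genes were named by rule: 12 in each direction with the largest called difference, a mean of at least 5 CPM and the same direction in all 3 pairs, the 6 members of a list with the smallest adjusted p, and 6 in each direction by difference between lines. Other members of a list were named after their values were seen. The members and lists were chosen with earlier results of these data known. Alternatives were no block, 6 libraries only, DESeq2 1.42.0, other size factors, no filter, thinned counts and each library or replicate left out. Some items are not reported here.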

Additional observations from a re-analysis of the deposited data

Results flagged for a closer look

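For 49 genes named here the difference between the knockdowns was not the same in the 2 lines by the interaction test of the joint fit (adjusted p below 0.05, where 9.71% of all genes tested passed). The values that follow are the A549 difference siYAP minus siTAZ less the H1299 difference, on the log2 scale. Line, medium and deposited table go together, and the depth of the YAP1 knockdown differed, so these cannot be told apart.

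Values below 0 mean that A549 lay lower than H1299 on this scale. Among genes of secreted and membrane proteins they were -2.82 for ADAM12, -1.96 for VGF, -1.62 for COL4A6, -1.57 for CEND1, -1.38 for COL17A1, -1.29 for STC1 and -1.19 for SYT11. SLC4A8 stood at -0.94, SFRP1 at -0.83, CEMIP at -0.71, TGFBR3 at -0.57, MICB at -0.46, ITGA2 at -0.44, ITGA5 at -0.40 and ITGA6 at -0.35. Among genes of intracellular proteins A1CF stood at -2.37, SNCG at -1.67, FOSL1 at -1.16, FOS at -0.82, NR4A1 at -0.80, PGAM1 at -0.57, FERMT2 at -0.55, PCNA at -0.42 and HSPA5 at -0.33.

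Values above 0 were 2.62 for TGFBI, 2.4 for NEBL, 2.36 for STRA6, 2.27 for KITLG, 2.21 for RASSF10, 2.15 for TRIML2 and 2.0 for SOX4. TNS3 stood at 1.24, TFPI2 at 1.22, LAMA3 at 1.17, PLOD2 at 1.14, NUAK2 at 1.14, YAP1 at 0.98, BMF at 0.96 and PMAIP1 at 0.90. FN1 stood at 0.83, SREBF2 at 0.77, FZD7 at 0.69, EIF4EBP2 at 0.55, SMAD3 at 0.54, FOSL2 at 0.52, EGFR at 0.44, SLC2A3 at 0.44, TEAD1 at 0.42 and JUND at 0.28.

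Of the 49, 37 passed in all 5 alternatives that held the block. A1CF passed in 1 of the 5. A1CF, NEBL and TRIML2 were not tested in H1299 on its own. Some H1299 levels were low, with means under siYAP and siTAZ of 0.136 and 0.851 CPM for RASSF10. These means were 0.222 and 1.19 CPM for STRA6 and 1.11 and 0.381 CPM for COL4A6. CEMIP, MICB, PCNA, HSPA5, JUND and TRIML2 did not pass without A549 replicate 1, without replicate 2 or without replicate 3. ITGA5 did not pass without replicate 2 or 3, FOS without replicate 1 or 2, and SLC4A8, TEAD1 and NEBL without replicate 2. Groups of 3 libraries are too small for a check of single outlying libraries.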

How the results depend on the processing

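The counts of calls depended most on the replicate block and on replicate 2. With no replicate block, 1 gene was called higher and 1 lower under siYAP, and the lines differed in 99 genes. The block is supported by how same-numbered libraries deviate, not by a statement in the labels that they were prepared together. DESeq2 with the block called 135 higher and 390 lower, and counts thinned to the shallowest library gave 227 and 417. With the 6 knockdown libraries alone 582 and 934 were called, and all other size factor and filter settings kept the counts within 1.5 times. Leaving out 1 library or replicate number gave 86 to 454 called higher, 203 to 822 called lower and 689 to 786 with a difference between lines. The 1127 called genes kept their direction wherever they had a value, except 1 of 1124 without replicate 2. No named gene turned its direction with a call. Among settings of named genes, 719 lost a call (no block included) and 69 gained one, 74 changed sign with no call in either fit, and 3685 were without change. The depth of siYAP 1, 10692671 reads, limits the genes of low level.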

Other observations

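Long non-coding transcripts lay slightly higher under siYAP than under siTAZ, a grouping by annotated class chosen after the values were seen. Of 608 tested lincRNA genes 26 were called higher and 2 lower, with a median difference of 0.12 on the log2 scale, and of 767 tested antisense genes 16 were called higher and 1 lower, with a median of 0.14. The 13215 protein-coding genes had a median of -0.01, with 341 called higher and 713 lower. The median of the lincRNA genes was 0.10, 0.13 and 0.11 in the 3 same-numbered pairs and that of the antisense genes 0.10, 0.13 and 0.12. Against control, the lincRNA median was 0.10 under siYAP and -0.01 under siTAZ, and the antisense median was 0.11 and -0.03. The reads of both classes summed to 5175, 5604 and 5521 CPM under siYAP, to 4814, 5046 and 5035 CPM under siTAZ and to 5052, 4919 and 5193 CPM in the controls. In these sums, in which the most abundant transcripts weigh most, all siYAP libraries lay above all siTAZ libraries.

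These genes are of low level, and 980 protein-coding genes below their median level of 1.14 CPM had a median difference of 0.02, with 8 called higher and 7 lower. The 2 classes together gave 42 calls higher and 3 lower. Without siYAP 2 they gave 3 and 0, without siTAZ 2 13 and 2, without siYAP 3 24 and 0, and without siYAP 1 35 and 3. DESeq2 called 10 higher and 0 lower, and no gene of these classes passed by edgeR without the block. No source used here gives the strand setting, so reads of antisense genes cannot be told apart from those of their partners.

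NEAT1, the scaffold RNA of nuclear paraspeckles, stood at 516, 625 and 368 CPM under siYAP and at 435, 479.8 and 315 CPM under siTAZ, with 475, 471 and 361 CPM in the controls. It was higher under siYAP in each pair, by 0.29 ± 0.05 (edgeR, adjusted p = 4.24e-05). GACAT2, a long non-coding RNA, differed by 0.51 ± 0.06 (adjusted p = 5.80e-07).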
